A study of Homo sapiens with 16 samples.

Results

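The unfolded protein response and protein folding in the endoplasmic reticulum (ER) were examined through 36 listed genes. They were chosen by name as sensors, chaperones, folding enzymes, degradation factors and components of protein entry and export. The choice was made with earlier results of these data known. All 36 were found among the 18332 genes of the deposited table, and all 36 passed the filter on low values in each comparison. RNA was sequenced from MDA-MB-231 and MDA-MB-468, 2 lines of human breast cancer cells without estrogen receptor, after 48 hours in 5 mM glucose, the control condition, or 25 mM glucose, which models hyperglycemia. Each of the 4 groups (MDA-MB-231 low glucose, MDA-MB-231 high glucose, MDA-MB-468 low glucose and MDA-MB-468 high glucose) held 4 libraries, 16 in all. In the described culture method, cells of all groups were first conditioned in low-glucose medium and then kept without serum. The lines are routinely grown in different media (DMEM for MDA-MB-231, RPMI for MDA-MB-468), so line and growth history cannot be told apart, and each line stands for 1 tumor. The sources do not say whether replicate flasks came from separate cultures, so p-values measure the spread between these libraries, which may be technical.

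The libraries held 14094597 to 24425916 reads on genes. The mesenchymal markers VIM and AXL averaged 96200 and 20100 normalized reads in MDA-MB-231 in low glucose, against 21.5 and 27.1 in MDA-MB-468. CD44, also listed as a marker of MDA-MB-231, did not set it apart, with 18000 reads against 25500 in MDA-MB-468. CDH1 and KRT5, epithelial and basal markers, averaged 5.51 and 1.13 in MDA-MB-231 cells and 2010 and 15200 in MDA-MB-468 cells. ESR1, the estrogen receptor gene, averaged 1.31 in MDA-MB-231 cells and 57.9 in MDA-MB-468 cells in low glucose, and the luminal gene GATA3, another marker these lines were listed to lack, averaged 143 and 621. The leukocyte gene PTPRC averaged at most 12.5 in any group, and COL1A1, a stromal marker, 254 to 338.

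The ER is where secreted and membrane proteins enter the secretory pathway, fold, receive sugar chains and form disulfide bonds. When unfolded proteins build up there, the sensors encoded by ERN1 (IRE1), EIF2AK3 (PERK) and ATF6 set off the unfolded protein response: IRE1 splices the mRNA of the transcription factor XBP1, PERK slows translation through eIF2 alpha, and ATF6 is cut from the Golgi membrane to act as a transcription factor. Together these arms raise chaperones, folding enzymes and the machinery of ER-associated degradation, which sends misfolded proteins back to the cytosol. Because glucose feeds the building of N-linked sugar chains, several ER chaperones were first known as glucose-regulated proteins induced by glucose starvation. Gene-level read counts measure neither XBP1 splicing nor sensor phosphorylation or ATF6 cleavage.

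ATF6 and XBP1 act through short promoter elements, so the promoter windows of the members (250 bases before to 50 after the start site, RefSeq, GRCh38.p14) were searched on both strands for the ER stress element ERSE, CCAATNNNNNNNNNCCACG, for ERSE-II, ATTGGNCCACG, and for the core of the unfolded protein response element UPRE, TGACGTGG. Windows were found for 33 of the 36 members, and PDIA3, DERL1 and SEC24D had no entry. ERSE stood in 7 of the 33 windows (21.2%) against 0.0916% of all 27305 genes, or 0.0769% of all 35116 windows. ERSE-II stood in 3 (9.09%) against 0.0696% of genes, and UPRE in 3 (9.09%) against 0.927%. In all, 10 of 33 members (30.3%) held an ERSE or ERSE-II, against 0.161% of genes. These matches describe the list, which is known for such elements, and a window without a match says only that these letters are not in it. The matches are printed below on the strand of the gene with 10 flanking bases on each side and the element in capitals, because they are the sequence that the members with a match have in common. The matches are not shared by all chaperones, and DNAJB9, DNAJB11, DNAJC3, MANF, PDIA4, PDIA5 and P4HB had neither an ERSE nor an ERSE-II in the window. An element on the opposite strand appears as its reverse complement.
XBP1 ERSE, chr22:28800593-28800631 (-): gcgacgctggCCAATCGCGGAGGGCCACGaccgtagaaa
HSPA5 ERSE, chr9:125241381-125241419 (-): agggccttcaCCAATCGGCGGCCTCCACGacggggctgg
HSP90B1 ERSE, distal, chr12:103930206-103930244 (+): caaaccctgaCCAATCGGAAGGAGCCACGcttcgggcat
HSP90B1 ERSE, proximal, opposite strand, chr12:103930311-103930349 (+): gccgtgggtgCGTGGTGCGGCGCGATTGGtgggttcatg
CALR ERSE, opposite strand, chr19:12938374-12938412 (+): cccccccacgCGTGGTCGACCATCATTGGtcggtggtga
CANX ERSE, chr5:179698768-179698806 (+): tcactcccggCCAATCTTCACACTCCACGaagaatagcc
PDIA6 ERSE, chr2:10812843-10812881 (-): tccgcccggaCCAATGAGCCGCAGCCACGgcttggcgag
CRELD2 ERSE, opposite strand, chr22:49918544-49918582 (+): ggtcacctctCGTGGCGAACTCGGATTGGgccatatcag
HERPUD1 ERSE-II, chr16:56932015-56932045 (+): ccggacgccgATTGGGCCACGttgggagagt
SDF2L1 ERSE-II, opposite strand, chr22:21642104-21642134 (+): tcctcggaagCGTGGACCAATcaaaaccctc
HYOU1 ERSE-II, distal, opposite strand, chr11:119057370-119057400 (-): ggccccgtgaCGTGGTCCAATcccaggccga
HYOU1 ERSE-II, proximal, opposite strand, chr11:119057264-119057294 (-): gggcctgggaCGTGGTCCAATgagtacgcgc
LRRC59 UPRE, chr17:50397516-50397543 (-): tcgcggaaggTGACGTGGacacggaagt

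The other UPRE matches were in SSR3 and in HYOU1, where the match overlapped the distal ERSE-II. The whole windows of HSPA5 and HERPUD1 are given because these genes, one holding ERSE and the other ERSE-II, moved the same way in MDA-MB-231 cells and opposite ways in MDA-MB-468 cells. The rise of HSPA5 in MDA-MB-231 was small (log2 change 0.08). The pair does not stand for the 2 elements. In MDA-MB-468 the other ERSE-II holders did not fall with HERPUD1, at log2 changes of 0.59 (SDF2L1) and 0.02 (HYOU1).
HSPA5, chr9:125241294-125241593 (-): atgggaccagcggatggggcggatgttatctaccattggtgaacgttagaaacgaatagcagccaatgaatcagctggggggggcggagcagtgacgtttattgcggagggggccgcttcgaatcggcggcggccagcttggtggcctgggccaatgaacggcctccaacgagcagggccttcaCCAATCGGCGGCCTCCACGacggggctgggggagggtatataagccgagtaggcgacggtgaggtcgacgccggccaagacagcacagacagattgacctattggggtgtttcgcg
HERPUD1, chr16:56931892-56932191 (+): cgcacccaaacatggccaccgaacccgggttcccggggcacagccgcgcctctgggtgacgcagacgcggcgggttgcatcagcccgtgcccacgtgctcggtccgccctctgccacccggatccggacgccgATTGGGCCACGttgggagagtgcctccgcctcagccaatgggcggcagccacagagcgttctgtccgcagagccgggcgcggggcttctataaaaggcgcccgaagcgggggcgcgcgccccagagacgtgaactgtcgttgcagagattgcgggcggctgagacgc

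**Figure D1:**
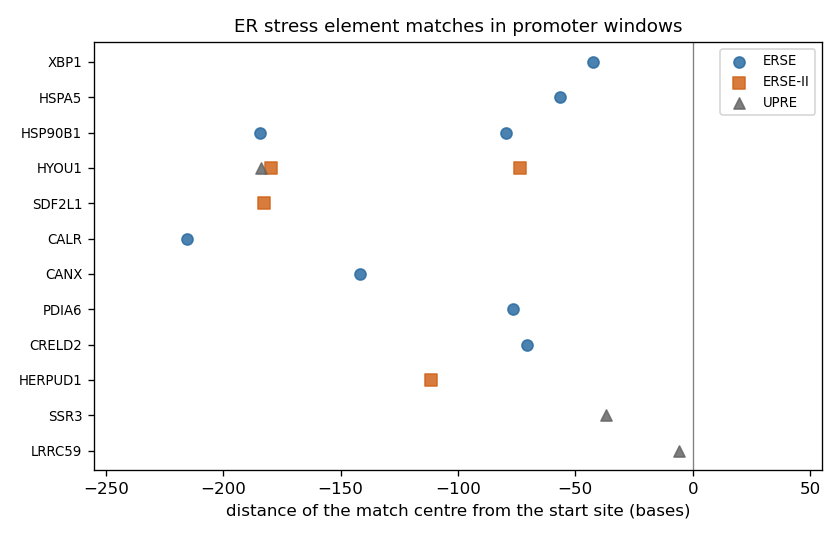
Positions of the matches to ERSE (circles), ERSE-II (squares) and UPRE (triangles) in the promoter windows of the 12 members that held any, with the distance of the match's centre from the start site in bases on the horizontal axis. All matches lay upstream of the start site, from -215.5 (CALR) to -6.0 (LRRC59).

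High glucose was set against low glucose within each line to ask how the ER folding machinery responded. Values are normalized reads (reads divided by a size factor of the library), log2 changes are fold changes on the log2(value + 1) scale with their standard error (SE), and a gene was called at an adjusted p under 0.05 with limma over all genes tested. In MDA-MB-231, 12 of 36 members were higher in high glucose, 1 was lower and 23 were not called, against a background of 5.71% of 14884 genes called higher and 9.37% called lower. In MDA-MB-468, 21 were higher, 3 were lower and 12 were not called, against 24.9% of 15757 genes called higher and 22.7% lower. Because the list was chosen with earlier results of these data known, these counts describe it and are no independent test of enrichment. The median log2 change of the members was 0.10 in MDA-MB-231 cells and 0.13 in MDA-MB-468 cells, and that of all genes tested was 0.00 in each. The widest change of a member was that of HERPUD1 in MDA-MB-231, at a log2 change of 0.33, and that of ATF6 in MDA-MB-468, at 0.97. The 4 high-glucose libraries all lay above the 4 low-glucose libraries for 11 members in MDA-MB-231 cells and for 21 in MDA-MB-468 cells, where 7.63% and 22.2% of all genes did so. They all lay below for 2 and 3 members, against 11.1% and 20.4% of all genes. Normalized reads are relative to the rest of the library, so a change of a gene cannot be told apart from a shift in total RNA. RNA was pooled over the cells of a culture, so a change in expressing cells and in RNA per cell cannot be told apart either.

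Of the 36 members, 8 were higher in high glucose in both lines: EIF2AK3, XBP1, HSPA5, SYVN1, SEC61A1, SEC61B, SSR1 and SEC24D. HERPUD1 and EDEM1 were higher in MDA-MB-231 cells and lower in MDA-MB-468 cells, and ERO1A was lower in MDA-MB-231 cells and higher in MDA-MB-468 cells. DNAJB9 and EDEM2 were called only in MDA-MB-231, both higher. In MDA-MB-468 alone, 12 members were called higher (ATF6, HSP90B1, SDF2L1, CALR, PDIA3, PDIA4, PDIA5, PDIA6, P4HB, SEC61G, SSR2 and LRRC59) and SEL1L was called lower. The remaining 10 (ERN1, HYOU1, DNAJB11, DNAJC3, MANF, CANX, CRELD2, DERL1, DERL2 and SSR3) were called in neither line. For all genes, the shares called in both lines or in opposite directions were not computed. These joint counts therefore describe the list and do not show a response shared beyond the calls of each line. A call in 1 line only does not show that the lines differ, which was tested separately.

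**Figure D2:**
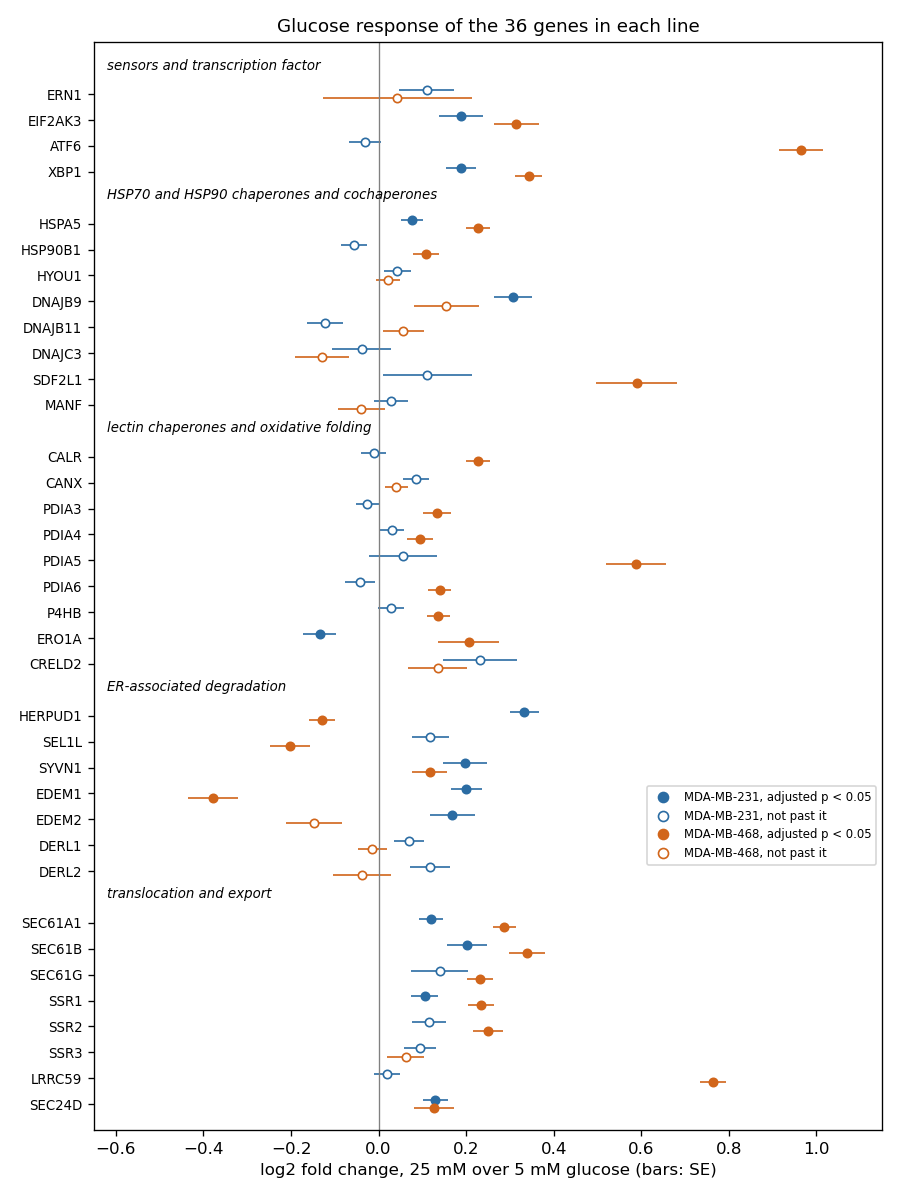
Log2 fold changes of the 36 genes (25 mM over 5 mM glucose, horizontal axis, with SE) in MDA-MB-231 (blue) and MDA-MB-468 (orange), grouped by role, filled where the adjusted p was under 0.05. The degradation genes lay right of 0 in MDA-MB-231 cells and mostly left of 0 in MDA-MB-468 cells, and ATF6 and LRRC59 lay farthest right in MDA-MB-468.

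Among the sensors and XBP1, 2 of 4 genes were called higher in MDA-MB-231 cells and 3 of 4 in MDA-MB-468 cells. The shares of all genes called higher were 5.71% and 24.9%. ATF6, the membrane-bound transcription factor, read 476, 524, 508 and 534 in MDA-MB-468 in low glucose and 962, 1037, 1043 and 951 in high glucose. All 4 high-glucose libraries were far above the 4 low-glucose ones, a 1.95-fold rise (log2 change 0.97 ± 0.05 SE, adjusted p = 3.52e-10). In MDA-MB-231, the counts of ATF6 were 1879, 1900.3, 1966 and 1988 in low glucose and 1926, 1933, 1911 and 1801 in high glucose. There the groups overlapped and the change was not called (log2 change -0.03 ± 0.04 SE, adjusted p = 0.644). The log2 change of ATF6 differed between the lines by 0.996 ± 0.06 (SE, adjusted p = 3.64e-09).

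XBP1 had 2216, 2248, 2169 and 2277 normalized reads in MDA-MB-231 in low glucose and 2534, 2620.1, 2568 and 2430.1 in high glucose. In MDA-MB-468 the corresponding reads were 3629, 3839.9, 3724 and 3707 in low and 4833, 4597, 4603 and 4864 in high glucose. The groups did not overlap in either line. The log2 change was 0.19 ± 0.03 (SE, adjusted p = 0.00101) in MDA-MB-231 cells and 0.34 ± 0.03 (SE, adjusted p = 1.58e-07) in MDA-MB-468 cells. The rise in MDA-MB-468 was the larger one (log2 difference 0.15 ± 0.04 SE, adjusted p = 0.00784), a difference that was lost under quantile rescaling, which gives all libraries the same distribution of values (0.10, adjusted p = 0.0753).

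EIF2AK3, the PERK gene, gave 746, 702, 722 and 689 reads in MDA-MB-231 in low glucose and 831, 864, 816 and 751 in high glucose. Its reads in MDA-MB-468 were 437, 450.1, 443 and 443 in low glucose and 544, 547, 589 and 527 in high glucose. Each high-glucose library exceeded every low-glucose library of its line. EIF2AK3 rose by 0.19 ± 0.05 (SE, adjusted p = 0.0165) in MDA-MB-231 cells and by 0.31 ± 0.05 (SE, adjusted p = 8.33e-05) in MDA-MB-468 cells, and the difference was not called (log2 difference 0.13 ± 0.06 SE, adjusted p = 0.153). The call in MDA-MB-231 was lost without high glucose replicate 2 (0.16, adjusted p = 0.0644).

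ERN1, the IRE1 gene, was the least abundant member per length in all 4 groups. It read 337, 356, 362 and 348 in MDA-MB-231 in low glucose and 371, 410.2, 390.1 and 346 in high glucose. In MDA-MB-468, ERN1 gave 53, 79.6, 74.4 and 79 reads in low and 94.3, 77.6, 68.7 and 55.6 in high glucose. The groups overlapped in both lines, and neither change was called (log2 change 0.11 ± 0.06 SE, adjusted p = 0.28 in MDA-MB-231, log2 change 0.04 ± 0.17 SE, adjusted p = 0.859 in MDA-MB-468).

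Of the 8 HSP70 and HSP90 chaperones and cochaperones, 2 were called higher in MDA-MB-231 (HSPA5 and DNAJB9) and 3 in MDA-MB-468 (HSPA5, HSP90B1 and SDF2L1), of which HSP90B1 was lost under quantile rescaling. These were 25.0% and 37.5% of the 8, against 5.71% and 24.9% of all genes. HSPA5, the ER chaperone BiP that also holds the sensors inactive, had 26146, 26866, 26692 and 27037 reads in MDA-MB-231 in low glucose and 27555, 28396, 27979.7 and 28640.3 in high glucose. In MDA-MB-468 its reads were 5702, 5858, 5849 and 5593 in low and 6862, 6622, 6802 and 6646 in high glucose. High-glucose libraries lay above low-glucose libraries in each line, narrowly in MDA-MB-231. The change was 0.08 ± 0.03 (SE, adjusted p = 0.0472) in MDA-MB-231 cells and 0.23 ± 0.03 (SE, adjusted p = 4.38e-06) in MDA-MB-468 cells, and it was larger in the latter (log2 difference 0.15 ± 0.03 SE, adjusted p = 0.000978). The call in MDA-MB-231 was lost under 11 of 20 alternatives (another scaling, filter, pseudocount, fit or tool, or 1 library left out), at an adjusted p up to 0.146, and 7 of which left out 1 library, any but low glucose replicate 4.

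DNAJB9 (ERdj4), an HSPA5 cochaperone and a known target of XBP1, read 1009, 951, 899.6 and 942 in MDA-MB-231 in low glucose and 1183, 1214, 1151 and 1155 in high glucose. Its reads in MDA-MB-468 were 339, 379, 362 and 308 in low and 403, 349.6, 414 and 378 in high glucose. The groups separated in MDA-MB-231 cells and overlapped in MDA-MB-468 cells. DNAJB9 rose by 0.31 ± 0.04 (SE, adjusted p = 8.49e-05) in MDA-MB-231, its log2 change in MDA-MB-468 was 0.16 ± 0.07 (SE, adjusted p = 0.0936), and the difference between the lines was not called (log2 difference -0.15 ± 0.09 SE, adjusted p = 0.213).

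SDF2L1, an ER-resident partner of DNAJB11 with an ERSE-II in its promoter window, gave 202, 171, 232 and 180.5 reads in MDA-MB-468 in low glucose and 273, 282, 299.9 and 325 in high glucose. In MDA-MB-231 it gave 279, 217, 294 and 204 reads in low glucose and 258, 288, 267 and 250.1 in high glucose. The low-glucose libraries were widely spread in both lines, and the groups separated only in MDA-MB-468. SDF2L1 rose by 0.59 ± 0.09 (SE, adjusted p = 6.04e-05) in MDA-MB-468, against 0.11 ± 0.10 (SE, adjusted p = 0.536) in MDA-MB-231. The difference (log2 difference 0.48 ± 0.16 SE, adjusted p = 0.0334) was lost in 9 of the fits that left out 1 library (adjusted p up to 0.0722), namely MDA-MB-231 low 1 and 3 and high 1, 3 and 4, and MDA-MB-468 low 2 and 4 and high 3 and 4.

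HSP90B1 (GRP94) rose by 0.11 ± 0.03 (SE, adjusted p = 0.00652) in MDA-MB-468 and had a log2 change of -0.06 ± 0.03 (SE, adjusted p = 0.237) in MDA-MB-231. The remaining members of this role were called in neither line. HYOU1 (GRP170), a nucleotide exchange factor for HSPA5, had a log2 change of 0.04 in MDA-MB-231 cells and 0.02 in MDA-MB-468 cells. DNAJB11 (ERdj3) had -0.12, just short of a call at an adjusted p of 0.0506, and 0.06. DNAJC3, an HSPA5 cochaperone that also restrains PERK, had -0.04 and -0.13, and MANF, a secreted ER stress protein that binds HSPA5, had 0.03 and -0.04.

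Of the 9 lectin chaperones and enzymes of oxidative folding, 7 were called higher in MDA-MB-468, while in MDA-MB-231 none was called higher and 1 was called lower. Among all genes, 24.9% and 5.71% were called higher. The contrast depended on the scaling. Under quantile rescaling, 2 of the 9 were called higher in MDA-MB-231, 0 lower, and 8 had a positive change. TMM factors and DESeq2 each gave 1 higher and 1 lower there. Calls for the difference between the lines went from 6 to 2 under quantile rescaling. The median log2 change of the 9 was 0.03 in MDA-MB-231 cells and 0.14 in MDA-MB-468 cells. Calreticulin, CALR, rose by 0.23 ± 0.03 (SE, adjusted p = 5.16e-06) in MDA-MB-468 and had a log2 change of -0.01 ± 0.03 (SE, adjusted p = 0.852) in MDA-MB-231. Its membrane-bound relative calnexin, CANX, was called in neither line (0.09 and 0.04). In MDA-MB-231 it lay near the threshold (adjusted p = 0.0621, limma) and was called under 8 of 20 alternatives, against 2 of 20 in MDA-MB-468. The protein disulfide isomerases, which form and rearrange disulfide bonds, were called higher in MDA-MB-468 in all 5 cases. Their log2 changes there were 0.13 for PDIA3, 0.09 for PDIA4, 0.59 for PDIA5, 0.14 for PDIA6 and 0.14 for P4HB, against -0.03, 0.03, 0.06, -0.04 and 0.03 in MDA-MB-231. CRELD2, an ER protein with disulfide isomerase activity, had 0.23 in MDA-MB-231 cells and 0.13 in MDA-MB-468 cells, without a call.

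PDIA5 stood apart from the other isomerases in size. In MDA-MB-468 it read 211, 209, 219.7 and 208 in low glucose and 319, 293, 323 and 344 in high glucose. In MDA-MB-231 its reads were 198, 239.7, 215 and 235 in low and 224, 242, 226 and 229 in high glucose. The groups were wide apart in MDA-MB-468 and overlapped in MDA-MB-231, where the low-glucose libraries had the wider spread. The rise in MDA-MB-468 was 1.5-fold (log2 change 0.59 ± 0.07 SE, adjusted p = 2.55e-06), and the lines differed (log2 difference 0.53 ± 0.09 SE, adjusted p = 0.000327). Exons of other genes in the table cover 12.0% of the annotated exon bases of PDIA5 (SEC22A), 25.2% of PDIA6 (ATP6V1C2) and 11.9% of LRRC59 (EME1). Smaller overlaps, up to 9.77% (HYOU1), exist for other members, among them CALR (9.64%) and SYVN1 (8.84%, FAU and MRPL49). Whether counting took strand into account is not given, so reads there cannot be assigned with certainty.

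ERO1A, the oxidase that recharges the disulfide isomerases, moved in opposite directions. It fell by 0.13 ± 0.04 (SE) on the log2 scale in MDA-MB-231 (adjusted p = 0.0218, limma) and rose by 0.21 ± 0.07 (SE, adjusted p = 0.0224) in MDA-MB-468. The difference was 0.34 ± 0.08 (SE, adjusted p = 0.00247). The call in MDA-MB-231 was lost under 4 alternatives (adjusted p up to 0.127), among them the fits without high glucose replicate 1 or 2. That in MDA-MB-468 was lost under 3 (up to 0.0809), among them those without low glucose replicate 4 or high glucose replicate 2.

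Among the 7 listed genes of ER-associated degradation, 2 (HERPUD1 and EDEM1) were called in opposite directions in the 2 lines. All 7 had a positive log2 change in MDA-MB-231 (4 called higher, median 0.17), and 6 of 7 had a negative one in MDA-MB-468 (3 called lower and 1 higher, median -0.13). These signs were the same with TMM factors, quantile rescaling and DESeq2. As background, 5.71% of all genes were called higher in MDA-MB-231, and 22.7% lower and 24.9% higher in MDA-MB-468. All 7 differences between the lines were negative and 4 were called (HERPUD1, EDEM1, EDEM2 and SEL1L), with a median of -0.32 on the log2 scale. Over all 17115 genes tested, 13.9% were called lower and 17.0% higher in this comparison. The share of each library's reads that the 7 genes took together was 0.0876% to 0.0925% in MDA-MB-231 in low glucose and 0.101% to 0.103% in high glucose. In MDA-MB-468 it was 0.0631% to 0.0642% in low glucose and 0.0575% to 0.0589% in high glucose.

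HERPUD1, a membrane protein that organizes the degradation complex and a known target of ATF6, read 2049, 2112, 2018 and 2027 in MDA-MB-231 in low glucose and 2645, 2586, 2578 and 2530.0 in high glucose. In MDA-MB-468 its reads were 3443, 3391, 3476 and 3319 in low glucose and 3074, 3106, 3169 and 3109 in high glucose. No library of one glucose level overlapped the other level in either line, with high glucose above in MDA-MB-231 cells and below in MDA-MB-468 cells. HERPUD1 rose by 0.33 ± 0.03 (SE, adjusted p = 1.51e-06) in MDA-MB-231 cells and changed by -0.13 ± 0.03 (SE, adjusted p = 0.00154) in MDA-MB-468 cells. The difference was -0.46 ± 0.03 (SE, adjusted p = 2.84e-08).

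EDEM1, a lectin that takes glycoproteins with trimmed mannose chains out of the folding cycle, gave 2835, 2745, 2894 and 3064 reads in MDA-MB-231 in low glucose and 3378, 3268, 3323 and 3279.5 in high glucose. MDA-MB-468 gave 801, 824, 757 and 887 reads in low glucose and 680.5, 635, 584 and 614 in high glucose. The levels of the 2 glucose conditions were separate in both lines and in opposite order. The change was 0.20 ± 0.04 (SE, adjusted p = 0.000774) in MDA-MB-231 cells and -0.38 ± 0.06 (SE, adjusted p = 4e-05) in MDA-MB-468 cells, and the difference was -0.58 ± 0.07 (SE, adjusted p = 8.18e-06).

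EDEM2, a related protein that starts the mannose trimming, had 583, 649, 597 and 592 reads in MDA-MB-231 in low glucose and 689.9, 648, 712 and 670.5 in high glucose. The reads in MDA-MB-468 were 541, 519.8, 531 and 457 in low glucose and 447, 430.4, 482 and 489 in high glucose. The groups overlapped in both lines, in MDA-MB-231 through low glucose replicate 2. EDEM2 rose by 0.17 ± 0.05 (SE, adjusted p = 0.0322) in MDA-MB-231, a call that was lost under 9 alternatives (adjusted p up to 0.105), among them the fits without low glucose replicate 1 or 3 or high glucose replicate 1, 3 or 4. EDEM2 had a log2 change of -0.15 ± 0.06 (SE, adjusted p = 0.0648) in MDA-MB-468. The difference between the lines was -0.32 ± 0.08 (SE, adjusted p = 0.00677).

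SYVN1 (HRD1), the ubiquitin ligase of the pathway, was the one degradation gene called higher in both lines. It read 2849.6, 2545, 2812 and 2346 in MDA-MB-231 in low glucose and 3086, 2883, 3007 and 3089 in high glucose. In MDA-MB-468 the reads of SYVN1 were 1268, 1183, 1277 and 1222 in low and 1318, 1334, 1313 and 1402 in high glucose. High-glucose libraries lay above low-glucose libraries in each line, closely so in MDA-MB-468. SYVN1 rose by 0.20 ± 0.05 (SE, adjusted p = 0.0137) in MDA-MB-231 cells and by 0.12 ± 0.04 (SE, adjusted p = 0.0217) in MDA-MB-468 cells, where the call was lost under 7 alternatives (adjusted p up to 0.109), among them the fits without low glucose replicate 2 or 4 or high glucose replicate 4. SEL1L, its adaptor, had a log2 change of 0.12 ± 0.04 (SE, adjusted p = 0.0663) in MDA-MB-231 cells and of -0.20 ± 0.05 (SE, adjusted p = 0.00158) in MDA-MB-468 cells, with a difference of -0.32 ± 0.07 (SE, adjusted p = 0.0017). The channel proteins DERL1 and DERL2 were not called, at 0.07 and 0.12 in MDA-MB-231 cells and -0.01 and -0.04 in MDA-MB-468 cells.

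**Figure D3:**
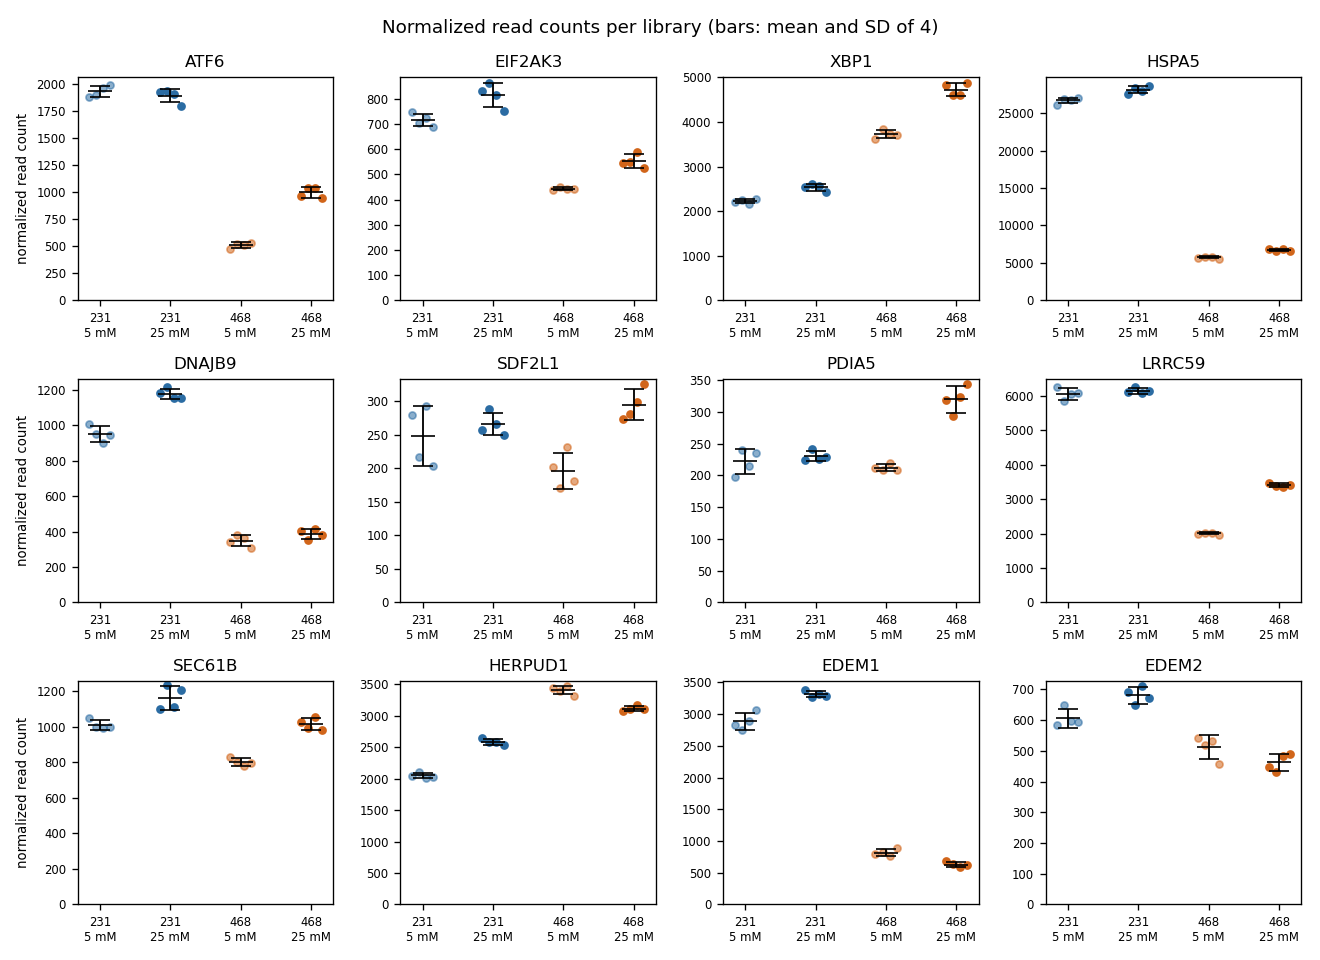
Normalized read counts of 12 members in each library (points, vertical axis from 0), by line and glucose concentration, with the mean and SD of 4 libraries. ATF6, PDIA5 and LRRC59 separate the glucose levels in MDA-MB-468 only, and HERPUD1 and EDEM1 run in opposite directions in the 2 lines.

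All 8 listed members of protein entry into the ER and export from it had positive log2 changes in both lines. The changes stayed positive with TMM factors, quantile rescaling and DESeq2. Called higher were 4 in MDA-MB-231 cells and 7 in MDA-MB-468 cells, against 5.71% and 24.9% of all genes. LRRC59, a ribosome-binding protein of the ER membrane with a UPRE match near its start site, read 1996, 2025, 2027 and 1965 in MDA-MB-468 in low glucose and 3477, 3377, 3355 and 3395 in high glucose. In MDA-MB-231 the reads of LRRC59 were 6266, 5841, 6060.2 and 6081 in low glucose and 6096, 6256, 6081 and 6134 in high glucose. The glucose levels were far apart in MDA-MB-468 and overlapped in MDA-MB-231. LRRC59 rose 1.7-fold in MDA-MB-468 (log2 change 0.76 ± 0.03 SE, adjusted p = 1.43e-11) and was not called in MDA-MB-231 (log2 change 0.02 ± 0.03 SE, adjusted p = 0.731). The difference was 0.74 ± 0.03 (SE, adjusted p = 3e-10). The other members with a UPRE match were not called in MDA-MB-468, at log2 changes of 0.06 (SSR3) and 0.02 (HYOU1).

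SEC61B, a subunit of the SEC61 channel through which new proteins enter the ER, had 1048, 996, 990.1 and 999 reads in MDA-MB-231 in low glucose and 1097, 1233, 1111 and 1208 in high glucose. In MDA-MB-468 it had 830.3, 798, 779 and 797 in low glucose and 1025, 991, 1056 and 982 in high glucose. The groups did not overlap in either line. SEC61B rose by 0.20 ± 0.05 (SE, adjusted p = 0.00562) in MDA-MB-231 cells and by 0.34 ± 0.04 (SE, adjusted p = 4.88e-06) in MDA-MB-468 cells, and the difference was not called (log2 difference 0.14 ± 0.06 SE, adjusted p = 0.0835). The pore subunit SEC61A1 rose by 0.12 ± 0.03 (SE, adjusted p = 0.00697) and by 0.29 ± 0.03 (SE, adjusted p = 1.53e-07). The third subunit, SEC61G, rose by 0.23 ± 0.03 (SE, adjusted p = 8.38e-06) in MDA-MB-468 and had a log2 change of 0.14 ± 0.07 (SE, adjusted p = 0.178) in MDA-MB-231.

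The TRAP complex, which sits beside the SEC61 channel, is encoded in part by SSR1, SSR2 and SSR3. SSR1 rose by 0.11 ± 0.03 (SE, adjusted p = 0.0294) in MDA-MB-231, and by 0.23 ± 0.03 (SE, adjusted p = 7.65e-06) in MDA-MB-468. The call of SSR1 in MDA-MB-231 was lost under 7 alternatives (adjusted p up to 0.0937), 6 of which left out 1 library, any but replicate 4 of either group. SSR2 had a log2 change of 0.11 ± 0.04 (SE, adjusted p = 0.0562) and of 0.25 ± 0.03 (SE, adjusted p = 1.34e-05), and SSR3 was called in neither line (0.09 and 0.06). SEC24D, a cargo adaptor of the COPII coat that carries proteins out of the ER, rose by 0.13 ± 0.03 (SE, adjusted p = 0.00507) in MDA-MB-231 cells and by 0.13 ± 0.05 (SE, adjusted p = 0.0314) in MDA-MB-468 cells, with a difference of -0.0036 ± 0.04 (SE, adjusted p = 0.962). Its call in MDA-MB-468 was lost under 6 alternatives (adjusted p up to 0.101), among them the fits without replicate 1 or 4 of either group.

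**Figure D4:**
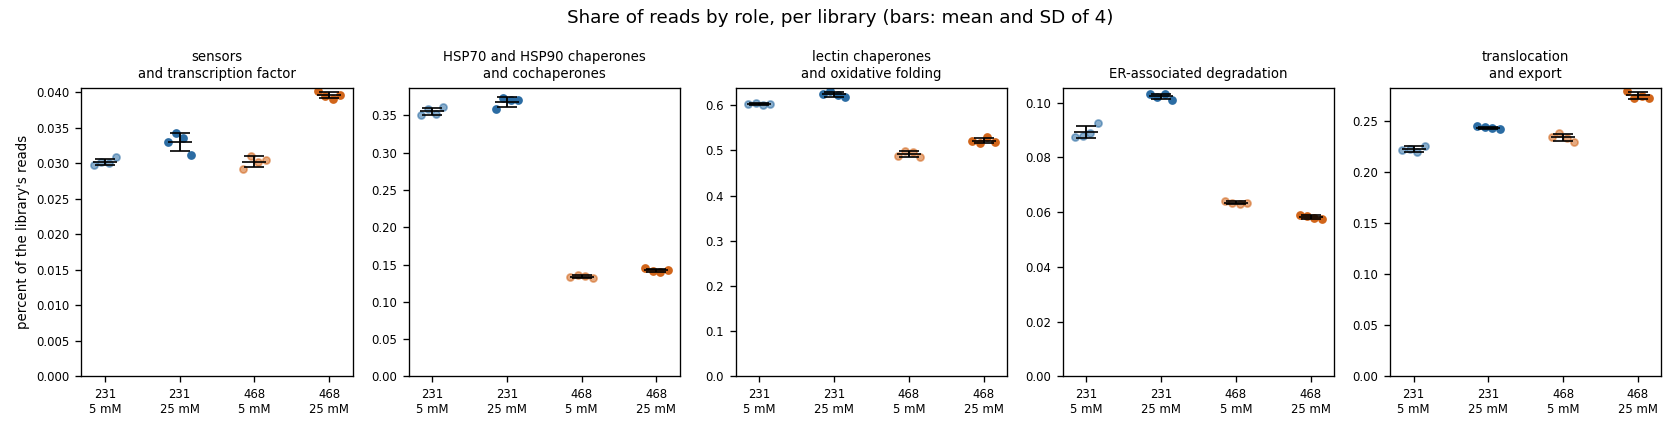
Percent of each library's reads taken by the genes of each role (points, vertical axes from 0), with the mean and SD of 4 libraries. The degradation genes average 0.0892% in low and 0.102% in high glucose in MDA-MB-231, and 0.0635% and 0.0581% in MDA-MB-468, while those of translocation and export are higher in high glucose in both lines.

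All 36 members together took 1.29% to 1.31% of the reads of a library in MDA-MB-231 in low glucose and 1.36% to 1.38% in high glucose. The shares in MDA-MB-468 were 0.941% to 0.967% and 1.03% to 1.05%. The groups were separate in each line. The translocation and export genes took 0.223% ± 0.00229 (SD, n = 4) and 0.243% ± 0.00131 (SD, n = 4) in MDA-MB-231, and 0.234% ± 0.00341 (SD, n = 4) and 0.275% ± 0.00297 (SD, n = 4) in MDA-MB-468.

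The difference of the glucose response between the lines was tested for each gene as the response of MDA-MB-468 minus that of MDA-MB-231. It was called for 19 of 36 members, 15 higher (41.7%) and 4 lower (11.1%). Of all 17115 genes tested, 17.0% were called higher and 13.9% lower. The lectin and oxidative folding genes accounted for 6 of the 15 and the HSP70 and HSP90 group for 4. This split depended on the scaling: under quantile rescaling, 6 members were higher and 6 lower (16.7% each way), against 15.7% and 16.2% of all genes under the same scaling. Of the 19 calls, 9 held under every alternative that kept the threshold, and these were ATF6, HSPA5, PDIA5, ERO1A and LRRC59 on the higher side and HERPUD1, SEL1L, EDEM1 and EDEM2 on the lower. XBP1, HSP90B1, DNAJB11, CALR, PDIA3, PDIA6 and SEC61A1 lost the call under quantile rescaling alone. P4HB, SDF2L1 and SSR1 lost it under 11, 9 and 5 alternatives.

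The level of the members in low glucose was compared between the lines, as MDA-MB-468 minus MDA-MB-231. In this comparison 29 of 36 members were lower in MDA-MB-468, 5 were higher and 2 were not called, against 40.4% of all genes lower and 45.0% higher. The median log2 difference of the members was -0.70, and that of all genes was 0.08. All 8 genes of the group of HSP70 and HSP90 chaperones and cochaperones were lower in MDA-MB-468. Log2 differences were -2.21 ± 0.02 (SE) for HSPA5, -1.42 for HSP90B1 and -1.42 for MANF. The sensors ERN1 and ATF6 were lower as well, at -2.30 ± 0.14 (SE) and -1.92 ± 0.04 (SE). The 5 genes that were higher in MDA-MB-468 were SEC61G (4.13 ± 0.06), PDIA6 (1.06 ± 0.03), CRELD2 (0.95 ± 0.08), XBP1 (0.74 ± 0.03) and HERPUD1 (0.73 ± 0.02). SDF2L1 (-0.33) lost its call without MDA-MB-231 low glucose replicate 1 or 3 or MDA-MB-468 low glucose replicate 2 (adjusted p up to 0.0588). CANX (0.04, adjusted p = 0.228) and PDIA5 (-0.06, adjusted p = 0.39) were not called. ATF6 stood below the MDA-MB-231 level after its rise in high glucose, at 998 ± 48.2 (SD, n = 4) against 1893 ± 61.6 (SD, n = 4) reads.

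ERO1A had the widest gap among the genes that were lower in MDA-MB-468. It averaged 3726 ± 205 (SD, n = 4) reads in MDA-MB-231 and 298 ± 9.94 (SD, n = 4) in MDA-MB-468 in low glucose. SEC24D averaged 3882 ± 34.4 (SD, n = 4) and 710.4 ± 22.3 (SD, n = 4), and EDEM1 2884 ± 134 (SD, n = 4) and 817 ± 54.3 (SD, n = 4).

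SEC61G went against the rest of its channel. It read 827, 816, 719.7 and 958 in MDA-MB-231 in low glucose and 14609, 15162, 14302 and 13930.3 in MDA-MB-468. Every library of MDA-MB-468 was far above every library of MDA-MB-231. SEC61A1 and SEC61B were instead lower in MDA-MB-468, with log2 differences of -0.60 and -0.33. SEC61G lies on chromosome 7 (54819943 to 54827667, minus strand, GRCh37), 259 kb from EGFR. EGFR and its neighbours LANCL2 (605 kb away) and VOPP1 (676 kb away), chosen after the values of SEC61G were seen, were higher in MDA-MB-468 by 2.78, 5.11 and 4.36 on the log2 scale. EGFR averaged 9138 ± 138 (SD, n = 4) reads in MDA-MB-231 and 62683 ± 1680.0 (SD, n = 4) in MDA-MB-468 in low glucose. DNA copy number was not analysed here.

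On the RPKM scale (reads per kb of transcript, scaled to the depth of the library), which permits comparison between genes, the most abundant members in MDA-MB-231 in low glucose were CALR (1001.5 ± 33.0, SD, n = 4), HSP90B1 (425), CANX (397), HSPA5 (392.5) and P4HB (391). HSP90B1, CANX, HSPA5 and P4HB followed one another within their SDs, while CALR above them and SSR2 below them (214.3) lay apart by more than the SDs. In MDA-MB-468 in low glucose, SEC61G came first at 2169.8 ± 69.7 (SD, n = 4), against 113 ± 13.8 (SD, n = 4) in MDA-MB-231. CALR (503), CANX (449), PDIA6 (270.3) and P4HB (250.3) followed there, each apart from its neighbours by more than their SDs.

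**Figure D5:**
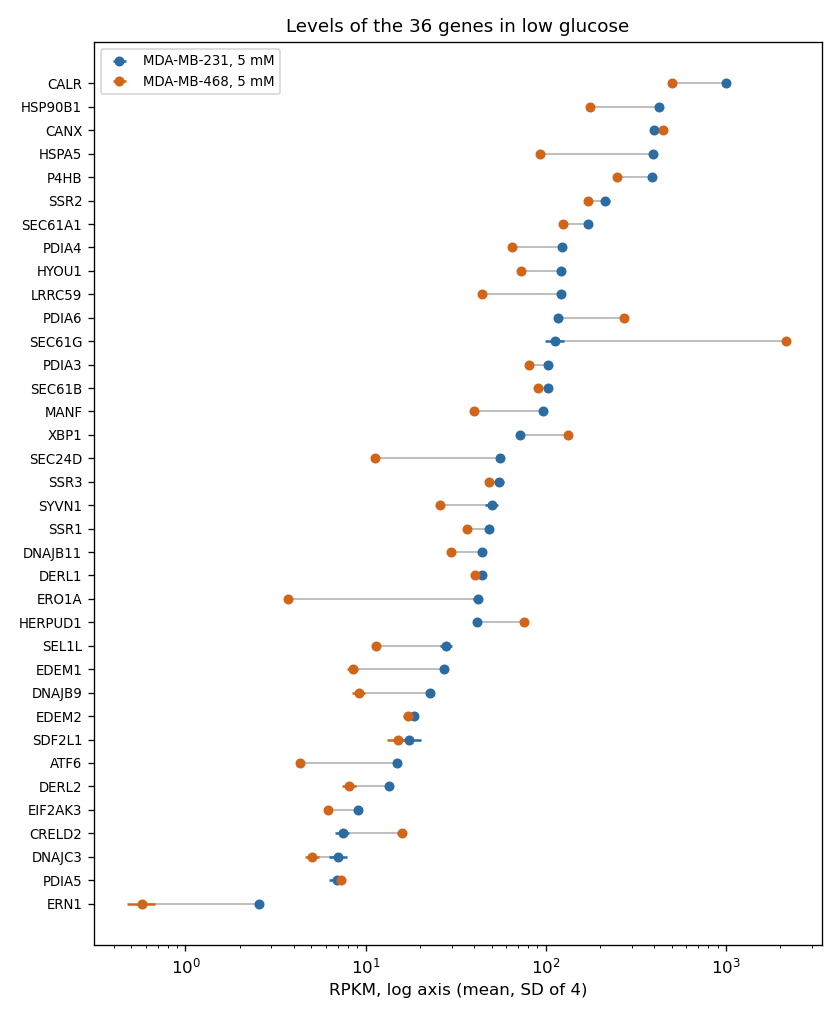
Levels of the 36 genes in low glucose in MDA-MB-231 (blue) and MDA-MB-468 (orange) in RPKM (log axis, mean and SD of 4 libraries, grey lines join the lines' values), ordered by the level in MDA-MB-231. Most orange points lie left of the blue ones, and SEC61G lies far to the right in MDA-MB-468.

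Members with an ERSE or ERSE-II in the promoter window were set beside the 23 with a window but neither element. In MDA-MB-231 the 10 holders had a median log2 change of 0.08 (3 called higher) and the 23 others 0.11 (8 higher, 1 lower). In MDA-MB-468 both medians were 0.14, with 6 of the 10 higher and 1 lower and 13 of the 23 higher and 2 lower. Over all genes, 5.71% were called higher and 9.37% lower in MDA-MB-231, and 24.9% and 22.7% in MDA-MB-468. In the differences between the lines, HERPUD1 was the one holder called lower, and 6 holders were called higher. Of the 23 others, 8 were called higher and 3 lower, against 17.0% and 13.9% of all genes. Among the 6 holders, XBP1, HSP90B1, CALR and PDIA6 lost the call under quantile rescaling. SDF2L1 lost it under 9 alternatives, and HSPA5 kept it under all.

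Beyond the members, 134 other genes of the pathway were listed, of which 133 were found. These lists too were chosen with earlier results of these data known, so their counts are descriptive. In MDA-MB-231, 22 of 132 tested (16.7%) were higher and 8 (6.06%) lower, against 5.71% and 9.37% of all genes (median 0.05). In MDA-MB-468, 60 of 130 (46.2%) were higher and 22 (16.9%) lower, against 24.9% and 22.7% of all genes (median 0.07). The genes of N-glycosylation and glycan trimming were called higher in 14 of 18 cases in MDA-MB-468 and lower in 2 (median 0.20), while in MDA-MB-231 2 were higher and 3 lower (median -0.01). In the test of the difference between the lines 13 of these 18 were called higher and 1 lower, where 17.0% and 13.9% of all genes were. Of 25 genes of COPII export and retrieval, 7 were higher in MDA-MB-231 and none lower, and 13 were higher and 3 lower in MDA-MB-468. Of the 23 other degradation genes, 5 (21.7%) were higher and 6 (26.1%) lower in MDA-MB-468, shares near those of all genes, and 1 (4.35%) was higher in MDA-MB-231. For the difference between the lines, 3 of these 23 (13.0%) were called higher and 5 (21.7%) lower, with a median of -0.05.

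DDIT3 (CHOP), the transcription factor of the PERK arm that promotes cell death, read 623, 699.7, 646 and 536 in MDA-MB-231 in low glucose and 668, 772, 702 and 784 in high glucose. In MDA-MB-468 the reads of DDIT3 were 176, 184, 189.9 and 172 in low glucose and 112, 95, 117 and 93.6 in high glucose. The groups overlapped in MDA-MB-231, and high glucose lay well below low glucose in MDA-MB-468. DDIT3 changed by 0.23 ± 0.07 (SE, adjusted p = 0.0406) in MDA-MB-231, a call lost under 8 alternatives (adjusted p up to 0.122), among them the fits without low glucose replicate 1 or 4 or high glucose replicate 2, 3 or 4, and by -0.79 ± 0.10 (SE, adjusted p = 5.35e-06) in MDA-MB-468. The difference was -1.02 ± 0.12 (SE, adjusted p = 8.51e-06). PPP1R15A (GADD34), which directs the dephosphorylation of eIF2 alpha, fell from 912 ± 23.2 (SD, n = 4) to 519 ± 11.7 (SD, n = 4) reads in MDA-MB-468 (log2 change -0.81 ± 0.04 SE, adjusted p = 4.5e-10), and in MDA-MB-231 its log2 change was -0.03 ± 0.03 (SE, adjusted p = 0.645).

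The largest rises among the other pathway genes in MDA-MB-468 were those of KDELR3, a receptor that returns ER proteins from the Golgi, and of DERL3, a derlin. KDELR3 went from 88.9 ± 14.5 (SD, n = 4) to 186 ± 14.2 (SD, n = 4) reads (log2 change 1.06 ± 0.11 SE, adjusted p = 9.56e-07). DERL3 averaged only 27.4 ± 9.47 (SD, n = 4) and 44.6 ± 5.09 (SD, n = 4) reads with overlapping groups (log2 change 0.74 ± 0.23 SE, adjusted p = 0.0155). In MDA-MB-231 the largest rises were those of CREB3L4, an ER-bound transcription factor (log2 change 0.37 ± 0.09 SE, adjusted p = 0.00854), and FKBP11, a prolyl isomerase (log2 change 0.30 ± 0.10 SE, adjusted p = 0.0405). KDELR3 rose there by nearly the same amount as FKBP11, from 585 ± 20.6 (SD, n = 4) to 722 ± 39.1 (SD, n = 4) reads (log2 change 0.30 ± 0.05 SE, adjusted p = 0.000497), a call held under every alternative, and its rise in MDA-MB-468 was the larger one (log2 difference 0.76 ± 0.12 SE, adjusted p = 0.000167). The call of FKBP11 was lost under 12 alternatives (adjusted p up to 0.202), 6 of which left out 1 library, any but replicate 3 of low or replicate 1 of high glucose. The largest falls there were those of NFYB, a subunit of the factor that binds the CCAAT part of ERSE (log2 change -0.34 ± 0.07 SE, adjusted p = 0.00372), and TMX4, a thioredoxin-related membrane protein (log2 change -0.29 ± 0.05 SE, adjusted p = 0.00147). TMX4 rose in MDA-MB-468 (log2 change 0.25 ± 0.06 SE, adjusted p = 0.00175). NFYB fell in MDA-MB-468 too (log2 change -0.14 ± 0.05 SE, adjusted p = 0.0228, limma), a call lost under 5 of 20 alternatives. The difference of NFYB between the lines was not called (log2 difference 0.20 ± 0.09 SE, adjusted p = 0.116).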

How the data were processed

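The deposited table holds normalized read counts, a signal the authors made by dividing the reads of each gene by a size factor of the library. For the patient tumors, the published methods give TruSeq stranded mRNA libraries, alignment with Tophat to hg19 with Ensembl genes and DESeq2. For the cell lines they name a HiSeq instrument and do not restate these steps. The submitters' processing notes name hg38 and edgeR. The build behind the values and the counting program and its use of strand are therefore uncertain. From the steps between values, 100.0% of values were whole reads (within 0.001), 14094597 to 24425916 per library. Symbols, lengths and overlaps came from GENCODE on GRCh37 (16633 of 18332 IDs had a symbol).

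Genes reaching 0.5 CPM in 2 samples of a fit or more were tested with limma 3.58.1 (R 4.3.3) on log2(value + 1), two-sided, with Benjamini-Hochberg adjustment over all genes tested. Each line was fitted alone (8 libraries) for the glucose response. The difference of the responses and the difference between the lines in low glucose came from 1 fit of 4 group means over all 16 libraries. Alternatives were edgeR 4.0.16 (quasi-likelihood) and DESeq2 1.42.0 on the recovered reads, other pseudocounts, filters and scalings, a loess correction for transcript length and GC content, a replicate block, an adjusted p under 0.01 and leaving out each library. edgeR called 2244 genes for MDA-MB-231 (limma: 2245) and 7484 for MDA-MB-468 (limma: 7495). The fits were tested on simulated data with known changes.

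The members and lists were chosen with earlier results of these data known. Values in every sample were printed for members called in a line and among the 8 largest changes there, and for HSPA5, XBP1, DDIT3 and the 3 sensors; of the other pathway genes, the 2 largest rises and falls in each line were named. SEC61G and its neighbours were added after their values were seen. PDIA2, PGR and PECAM1 were not analysed here. Levels between genes were compared as RPKM computed from the recovered reads and the canonical transcript length. Promoter sequences are those of RefSeq on GRCh38.p14 and were not used with coordinates of other builds.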

Additional observations from a re-analysis of the deposited data

Results flagged for a closer look

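The glucose response differed between the lines for 19 members by the interaction test, given here as the log2 response of MDA-MB-468 minus that of MDA-MB-231. Among the sensors and XBP1 it was 0.996 for ATF6 and 0.15 for XBP1. In the group of HSP70 and HSP90 chaperones and cochaperones it was 0.15 for HSPA5, 0.17 for HSP90B1, 0.18 for DNAJB11 and 0.48 for SDF2L1. For the lectin chaperones and folding enzymes it was 0.24 for CALR, 0.16 for PDIA3, 0.53 for PDIA5, 0.18 for PDIA6, 0.11 for P4HB and 0.34 for ERO1A. The degradation genes had negative differences, of -0.46 for HERPUD1, -0.32 for SEL1L, -0.58 for EDEM1 and -0.32 for EDEM2. In translocation it was 0.17 for SEC61A1, 0.13 for SSR1 and 0.74 for LRRC59. As background, 17.0% of all genes tested were called higher and 13.9% lower.

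In 9 of 144 groups of 4 libraries, 1 library stood apart from the other libraries by a gap of more than 0.829 of the group's whole range. Chance gives such a gap in about 1 in 20 groups. In MDA-MB-231 in low glucose the highest library stood apart for CANX (0.832), SEL1L (0.844) and SEC61B (0.841). In MDA-MB-231 in high glucose the highest library stood apart for DNAJB11 (0.98) and MANF (0.941), and the lowest for CALR (0.871). In MDA-MB-468 in low glucose it was the highest for HSP90B1 (0.83) and SSR1 (0.913), and in high glucose the lowest for PDIA6 (0.97).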

How the results depend on the processing

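Over 3786 alternative values of single genes, 3572 kept direction and side of the threshold, 108 lost the call, 69 gained it and 36 changed sign while not called in either fit. In the remaining one, the difference of response of P4HB lost its call and changed sign under quantile rescaling (-0.0236, adjusted p = 0.562). Of the members called, 8 of 13 in MDA-MB-231, 20 of 24 in MDA-MB-468, 9 of 19 for the difference of response and 33 of 34 for the difference between lines were called under every alternative that kept the threshold. The number of members called lower in MDA-MB-231, 1 in the fit reported, was 2 with a pseudocount of 5, 2 with the stricter filter (1 CPM in 4 samples), 3 with the loess correction, 2 with that correction and the replicate block, 0 under quantile rescaling, 0 in the fit over all 16 libraries, 0 at an adjusted p under 0.01 and 0 to 2 with 1 library left out. At an adjusted p under 0.01, 7 members and 1119 genes in all were called in MDA-MB-231, the members all higher. Members called higher in MDA-MB-231 ranged from 9 to 18 with 1 library left out, and 18 was reached without low glucose replicate 4. Calls in MDA-MB-231 were gained most often by CANX (8 of 20 alternatives), SSR2 (6), SEL1L (5) and DNAJB11 (5, as lower). Quantile rescaling moved the share of calls in MDA-MB-231 that were higher from 37.9% to 48.0% (1027 higher and 1114 lower, with 17 members higher), and it left 6 members higher and 6 lower in the difference of response. The causes were not tested.

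Libraries with the same replicate number did not deviate together: the correlation of their deviations was -0.0866 to 0.0157 in MDA-MB-231 and -0.0224 to 0.107 in MDA-MB-468, where 2 of 4 libraries correlated best with their own number. With the number as a replicate block, 9 members were called higher and 1 lower in MDA-MB-231 (571 and 1053 genes), 20 and 3 in MDA-MB-468 (3855 and 3528 genes), 13 and 4 for the difference of response, and 5 and 29 for the difference between the lines. With 4 libraries a group, members with small changes near the threshold, such as HSPA5, EDEM2 and SSR1 in MDA-MB-231, are the least certain.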

Other observations

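Pseudogenes share sequence with some members. HSPA5P1 reached at most 20.7 normalized reads in any library and PDIA3P1 at most 90.4, far below HSPA5 and PDIA3. The members called higher in MDA-MB-231 had a median transcript length of 3303 nucleotides, against 2666 for all genes called higher there. In MDA-MB-468 the members called higher had a median of 2782 nucleotides, against 2721.5 for all genes called higher, and the 3 members called lower 6113, against 4127 for all genes called lower.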
